A study of Saccharomyces cerevisiae with 227 samples.

Results

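The transcripts described here are those of the yeast heme pathway, 8 genes for heme biosynthesis and the heme oxygenase gene. They are 9 of the 5609 ORFs in the deposited value table and were taken from it by ORF name. The biosynthetic genes are HEM1 (YDR232W), HEM2 (YGL040C), HEM3 (YDL205C), HEM4 (YOR278W), HEM12 (YDR047W), HEM13 (YDR044W), HEM14 (YER014W) and HEM15 (YOR176W), and the heme oxygenase gene is HMX1 (YLR205C). All 9 had a value on each of the 227 arrays, so none was lost to a filter.

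Heme synthesis begins in the mitochondrion, where Hem1 condenses glycine with succinyl-CoA to aminolevulinate. The cytosolic enzymes Hem2, Hem3, Hem4 and Hem12 then build and trim the tetrapyrrole ring, and Hem13, Hem14 and Hem15 finish it by oxidation and by insertion of iron. In yeast Hem13 (coproporphyrinogen oxidase) and Hem14 (protoporphyrinogen oxidase) consume molecular oxygen, and so does Hmx1, which opens the ring and releases the iron. Heme also carries the oxygen signal in this organism. The activator Hap1 binds heme, and the repressor Rox1, made when heme is present, acts with Mot3 on genes used under low oxygen, of which HEM13 is a textbook case.

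Cells of strain JM43 (MATα, [rho+], auxotrophic through leu2, his4, trp1 and ura3) were grown in fermentors sparged with air, and samples were hybridized with Cy3 against a Cy5-labelled reference RNA. All media held Tween 80, ergosterol and silicon antifoam, with galactose (SSG-TEA) or glucose (SSD-TEA) as the sugar. Anaerobiosis began with a switch of the gas to O2-free N2 and was followed from 0.04 to 6 generations, on 42 arrays in galactose and 41 in glucose including the aerobic controls at 0 generations. Antimycin A, an inhibitor of the cytochrome bc1 complex, was added at 1 μM to cells in galactose and air, and 33 arrays cover 0 to 3 generations of this treatment. The labels of its arrays at 0 generations name the drug but also call them the control, and the methods place them before its addition, so they were used as the untreated control. The same cultures were then switched to N2 with the drug still present, on 30 arrays, so that the last time point in air is the control for anaerobiosis with antimycin A. Re-aeration after 6 generations of anaerobiosis was followed on 33 arrays in each sugar, with 6 generations as the control and time points from 6.03 to 7.6 generations. The msn2/4 mutant, altered in the genes of the related stress activators Msn2 and Msn4, was followed on 15 arrays in galactose, before the switch to N2 and 0.04, 0.08, 0.19 or 2 generations after it. Groups hold 3 arrays, except 0.38 generations of anaerobiosis in glucose, which holds 2. Time is counted in generations. The paper reports slower growth in galactose without oxygen than in air, so equal generations need not be equal hours between series. Per the methods each replicate joined 2 fermentor runs sampled at alternating time points, and p-values measure only the spread between these samples.

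Values are ratios to a reference that differs between series, read as log2, so that levels can be compared neither between genes nor between series. A change is the mean of a time point minus the mean of the control of its series, given with the SE of limma's fit. It was called where the p-value adjusted by Holm's method over all genes of the time point was 0.01 or less.

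Array medians lay between −0.08 and 0.09. As a check of the mutant, whose reference may differ from that of the wild type, the levels of its altered genes were set side by side, with MSN2 at −4.85 ± 0.62 against 0.19 ± 0.17 in the wild type and MSN4 at −1.72 ± 0.39 against −0.40 ± 0.26 (SD, n = 3 each, aerobic controls). Arrays of a group correlated with a median r of 0.81 to 0.95 depending on the series, and least (0.46) among those taken 3 generations into antimycin A treatment in air. In glucose re-aeration, replicate 3 at 7.6 generations stood at r = 0.990 with replicate 3 at 6.6 generations and at 0.926 and 0.848 with its own group. Without it 39 of the 40 calls of heme genes that it touches held, and the exception, HEM2 at 7.6 generations, is given below.

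Of 630 changes of the 9 genes, 186 were called, 106 upwards and 80 downwards. Of these, 151 (81.2%) fell to 3 genes, with HMX1 called at 60 of 70 time points, HEM13 at 46 and HEM14 at 45. HEM2 was called at 17, HEM15 at 14 and HEM1 at 4. HEM3, HEM4 and HEM12 were called at 0 of 70 by limma with Holm's adjustment, with an unadjusted p under 0.05 at 18, 8 and 14 of them. The largest change was 5.38 for HMX1, 5.12 for HEM13 and 3.91 for HEM14, against 0.51 for HEM4 and 0.46 for HEM12. The median SD within a group was 0.10 to 0.24 for the 9 genes, highest for HEM3.

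**Figure D1:**
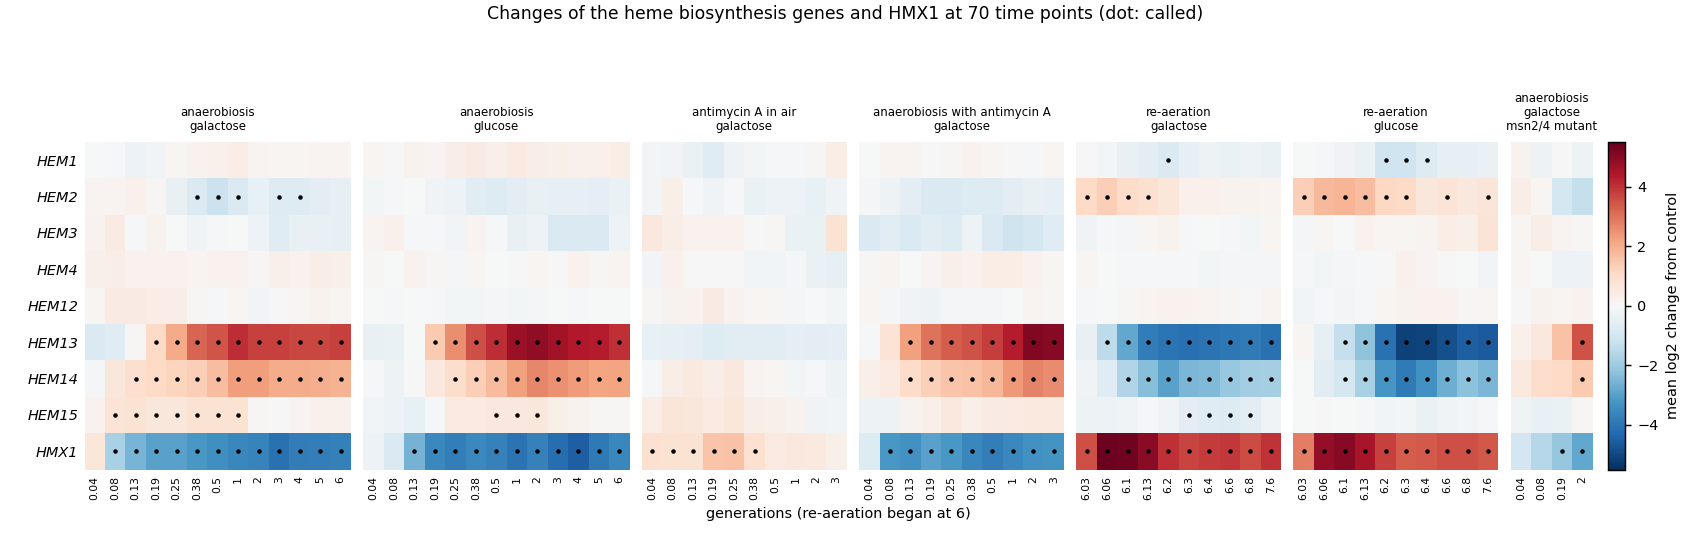
Mean log2 change from the control of each series (colour) for the 9 genes (rows) at the 70 time points (columns, in generations), with a dot where the change was called. The dots of HEM13 and HEM14 lie on red in the anaerobic series and on blue in re-aeration, those of HMX1 on the opposite colours, and HEM3, HEM4 and HEM12 carry no dot.

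The first comparison asked how the pathway responds when oxygen is withdrawn from respiring cells in galactose. The genes of the last steps, HEM13, HEM14 and HEM15, rose and HEM2 and HMX1 fell within 3 generations, and HEM1, HEM3, HEM4 and HEM12 were not called. Thus 5 of 9 genes were called, where 40.5% of all genes were, with 19.7% of all genes called upwards and 24% downwards.

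HEM13 stood at −2.28, −2.38 and −3.41 in the aerobic controls, at −1.57, −1.59 and −1.57 at 0.19 generations, at 1.37, 1.33 and 1.45 at 1 generation and at 1.11, 1.00 and 1.12 at 6 generations. From 0.19 generations on every array lay above every control, of which replicate 3 was about 1 log2 unit below the other two. HEM13 was first called at 0.19 generations (1.11 ± 0.17, adjusted p = 0.002548, limma). It was highest at 1 generation, at 4.07 ± 0.17 or 16.8-fold (adjusted p = 8.888e-16), and remained at 3.77 at 6 generations. Against these scattered controls no rise showed before 0.19 generations. At 0.04 generations the change was −0.79 ± 0.17 and missed the threshold (adjusted p = 0.4138), and at 0.13 generations it was 0.05. The arrays themselves stood from −3.41 to −3.26 at 0.08 generations and from −2.77 to −2.55 at 0.13 generations, without overlap. The call at 0.19 generations was lost without any 1 replicate (0.75 to 1.31).

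HEM14 stood at −1.22, −1.58 and −1.85 in the controls, at −0.81, −0.48 and −0.64 at 0.13 generations and at 0.76, 0.72 and 0.74 at 2 generations. No array from 0.08 generations on overlapped the controls. Its first call came at 0.13 generations (0.90, adjusted p = 7.957e-05), and its highest change was 2.29 at 2 generations, or 4.88-fold (adjusted p = 7.699e-14, limma). At 6 generations it was 1.92. The call at 0.13 generations was lost without replicate 2 and without replicate 3 (0.81 and 0.76).

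HEM15, the ferrochelatase gene, had another course. Its controls read −0.02, −0.25 and −0.22, its arrays at 0.08 generations 0.69, 0.49 and 0.55, those at 1 generation 0.61, 0.59 and 0.71, and those at 2 generations 0.04, −0.09 and −0.27. The groups did not overlap up to 1 generation and overlapped at 2 generations. The gene was called at each of the 7 time points from 0.08 to 1 generation, with changes from 0.61 to 0.81 (adjusted p = 2.125e-05 at 0.08 and 3.333e-06 at 0.13 generations), and at 2 and 3 generations the changes were 0.06 and 0.03. It was thus the earliest of the biosynthetic genes to be called, and was not called after 1 generation. All its calls were lost when replicate 2 was left out, and that at 0.08 generations without any 1 replicate.

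HEM2, which encodes aminolevulinate dehydratase, stood at 0.29, 0.37 and 0.56 in the controls and at −0.94, −0.56 and −0.84 at 0.5 generations, with no overlap. It was lowest there, at −1.19 or 2.28-fold down (adjusted p = 2.989e-07, limma), and was also called at 0.38, 1, 3 and 4 generations with changes from −0.70 to −0.81. Its calls up to 3 generations were lost when replicate 3 was left out.

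HMX1 stood at 1.09, 1.22 and 1.43 in the controls, at 1.69, 2.14 and 1.90 at 0.04 generations, at −0.92, −0.42 and −0.32 at 0.08 generations and at −3.28, −2.53 and −2.69 at 3 generations. The arrays at 0.04 generations lay above the controls and all later ones below. The change of 0.66 ± 0.20 at 0.04 generations was not called. At 0.08 generations HMX1 was already 3.49-fold down (−1.80, adjusted p = 5.012e-06), before any call of HEM13, though this call was lost without replicate 2 (−1.89, adjusted p = 0.03967). It reached −4.08, or 16.9-fold down, at 3 generations (adjusted p = 3.432e-14, limma) and was at −3.75 at 6 generations. Over 4 to 6 generations 4 of 9 genes were called (14.6% of all genes), HEM13 and HEM14 upwards and HEM2 and HMX1 downwards.

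In glucose, a sugar that represses respiration also in air, HEM13, HEM14 and HEM15 again rose and HMX1 fell, and HEM2 was not called. This gave 4 of 9 genes within 3 generations (21.6% of all genes, 9.45% upwards and 13% downwards) and 3 of 9, without HEM15, over 4 to 6 generations (21.1% of all genes).

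HEM13 stood at −3.52, −3.09 and −3.13 in the controls, at −2.05, −2.03 and −1.37 at 0.19 generations, at 1.60, 1.503 and 1.78 at 2 generations and at 0.88, 0.76 and 0.68 at 6 generations. All arrays from 0.19 generations on were above the controls, with a span of 0.68 between the 3 at 0.19 generations. The first call was at 0.19 generations, as in galactose (1.43, adjusted p = 7.379e-06). The change was highest at 2 generations, 4.87 or 29.3-fold (adjusted p = 4.924e-18, limma), and 4.02 at 6 generations. Without replicate 2 the call at 0.19 generations was lost (1.61, adjusted p = 0.01104).

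HEM14 stood at −1.57, −1.51 and −1.36 in the controls, at −1.84, −1.70 and −1.77 at 0.08 generations and at 1.31, 1.03 and 1.25 at 2 generations. Its arrays lay below the controls at 0.08 generations and above them at 2 generations. It was first called at 0.25 generations (0.96, adjusted p = 2.873e-06, and not without replicate 2) and highest at 2 generations (2.68, 6.4-fold, adjusted p = 2.382e-16). HEM15 stood at −0.21, −0.11 and 0.05 in the controls, at −0.47, −0.48 and −0.66 at 0.13 generations and at 0.62, 0.51 and 0.50 at 2 generations. It too was below its controls before it was above them. It was called at 0.5, 1 and 2 generations (0.58 to 0.63), and these calls were lost without any 1 replicate.

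HMX1 stood at 1.91, 1.81 and 1.95 in the controls, at 1.03, 1.15 and 1.11 at 0.08 generations and at −0.78, −0.80 and −0.60 at 0.13 generations. The groups did not overlap at either time, but only the second change was called, at −2.62 or 6.14-fold down (adjusted p = 2.827e-10). It was lowest at 4 generations, at −4.53 or 23.0-fold down. HEM2 had its lowest change, −0.69 ± 0.14, at 0.5 generations. From 0.38 to 6 generations all its arrays lay below the controls, with means from −0.26 to 0.04 against 0.43.

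The difference between the sugars was tested as an interaction, the change in glucose minus that in galactose, at 13 time points. It was called for 2 of 9 genes, where 31.8% of all genes were called. HEM15 was lower in glucose at 0.08 generations (−1.06, adjusted p = 1.763e-07) and at 0.13 generations (−1.26 ± 0.12, adjusted p = 8.032e-10), where its change was −0.45 in glucose and 0.81 in galactose. HEM14 was lower in glucose at the same times, by 0.91 ± 0.15 at 0.08 generations (adjusted p = 0.00102), where it was at −0.29 in glucose and 0.62 in galactose, and with a difference of −0.87 at 0.13 generations. The HEM14 calls were lost without replicate 2 and without replicate 3. For HEM2, HEM13 and HMX1 no difference between the sugars was called.

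**Figure D2:**
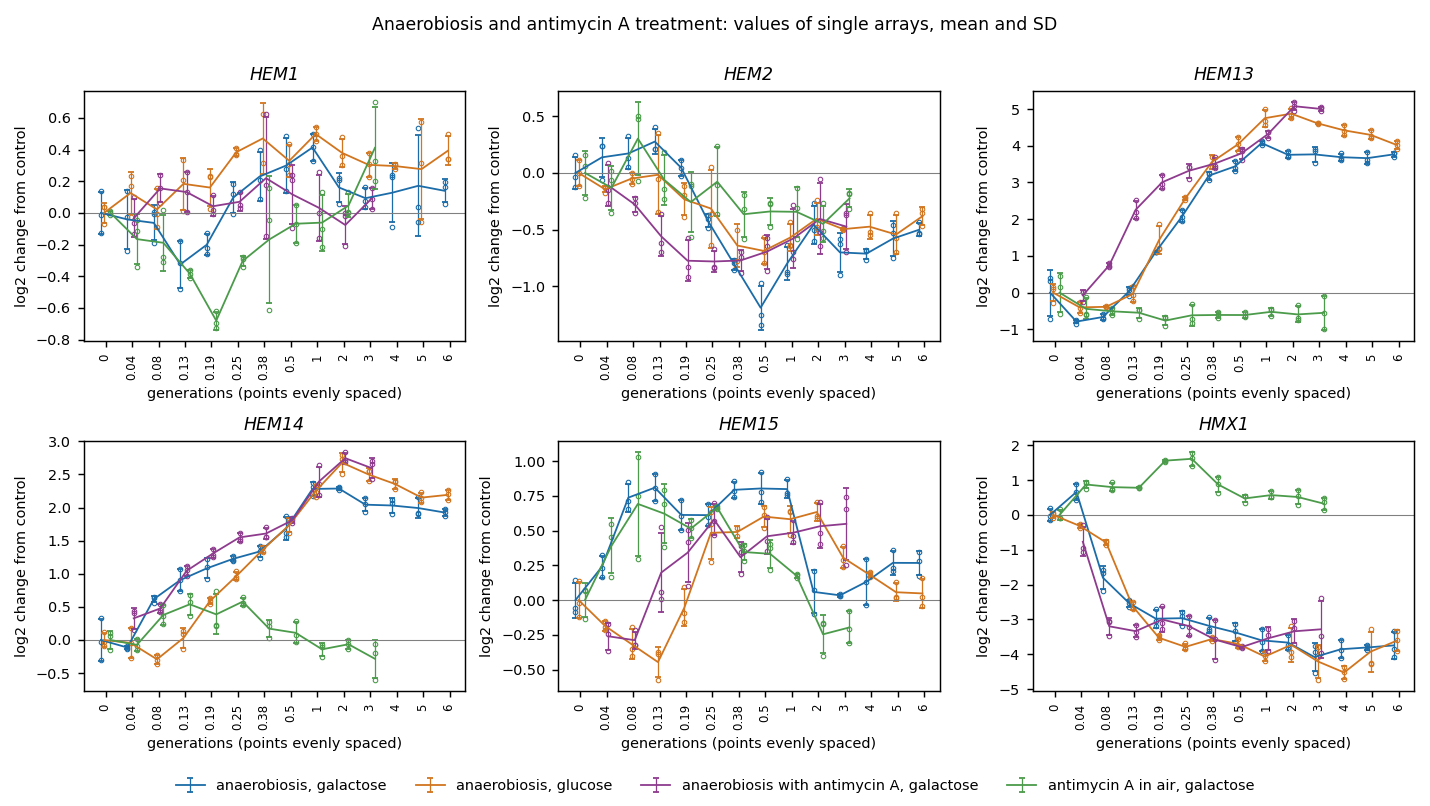
Log2 change from the control (vertical axis) of 6 heme genes against generations (horizontal axis, points evenly spaced) in anaerobiosis in galactose or glucose, anaerobiosis with antimycin A, and antimycin A treatment in air. Circles are single arrays, lines join means and bars are the SD. HEM13 and HEM14 climb in the 3 anaerobic series and HMX1 falls in them, while in antimycin A treatment in air HEM13 stays between −0.76 and −0.44 and HMX1 lies above 0.

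Antimycin A treatment in air asked whether a block of respiration with oxygen still present moves the same transcripts. A single heme gene was called, HMX1. It rose, where in anaerobiosis in galactose it had fallen from 0.08 generations on. At 0.04 generations its arrays lay above the controls in both treatments. HMX1 alone is 1 of 9 genes, where 23.6% of all genes were called, 11.4% upwards and 12.3% downwards. HMX1 stood at 0.57, 0.57 and 0.82 in the controls, at 1.41, 1.59 and 1.57 at 0.04 generations, at 2.06, 2.44 and 2.29 at 0.25 generations and at 1.12, 0.78 and 1.01 at 3 generations. The arrays at 0.04 and 0.25 generations were all above the controls, and at 3 generations a treated array fell below the highest control. HMX1 was called from 0.04 (0.87, adjusted p = 0.001259) to 0.38 generations and was highest at 0.25 generations, at 1.61 or 3.06-fold (adjusted p = 3.448e-09, limma). From 0.5 to 3 generations it was between 0.32 and 0.57. The calls at 0.19 and 0.25 generations held without any 1 replicate, and the other four did not. With quantile normalization of the arrays none of these calls held (0.86 at 0.25 generations, adjusted p = 0.04883).

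The oxygen-consuming steps of synthesis were not called in this treatment. HEM13 stood at −3.11, −2.81 and −3.85 in the controls and at −4.26, −3.34 and −3.81 at 3 generations, with overlapping arrays and changes from −0.44 to −0.76 ± 0.21 over the 10 time points. HEM14 was between −0.28 and 0.58 ± 0.14. Its arrays at 0.08, 0.13, 0.19 and 0.25 generations lay above all controls, with means from −0.92 to −0.72 against −1.30. HEM15 stood at −0.09, 0.13 and 0.12 in the controls and at 0.35, 0.80 and 1.09 at 0.08 generations. These groups did not overlap, but the change of 0.69 ± 0.14 missed the threshold (adjusted p = 0.1265, limma). At every time point from 0.04 to 1 generation the HEM15 arrays lay above all controls. The means there were from 0.23 to 0.75, against 0.05 in the controls.

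Set directly against anaerobiosis in galactose, the change in antimycin A treatment in air differed for 3 of 9 genes, where 14.6% of all genes were called. HMX1 was higher at 9 time points from 0.08 to 3 generations, by 4.58 ± 0.24 at 0.25 generations (adjusted p = 4.942e-21), with changes of 1.61 in antimycin A and −2.97 in anaerobiosis. HEM13 was lower at 7 time points from 0.19 to 3 generations, with a difference of −4.60 ± 0.27 at 1 generation (adjusted p = 1.925e-18). HEM14 was lower at 5 time points from 0.38 to 3 generations, with −2.42 ± 0.18 at 1 generation (adjusted p = 1.874e-14). For HEM15 no difference was called.

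Anaerobiosis with antimycin A then asked what the loss of oxygen does to cells whose respiratory chain was already blocked. HEM13 and HEM14 rose and HMX1 fell, 3 of 9 genes against 17.8% of all genes, 10.4% upwards and 8.24% downwards. HEM2 and HEM15 were not called, with −0.78 ± 0.15 at 0.25 generations for HEM2. From 0.08 to 1 generation all HEM2 arrays lay below the controls, with means from −0.43 to 0.08 against 0.35. From 0.25 to 3 generations all HEM15 arrays lay above the controls, with means from 0.17 to 0.44 against −0.14. The control of this series is also the last time point of antimycin A treatment in air, so those series are not independent.

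HEM13 stood at −4.26, −3.34 and −3.81 before the switch, at −3.00, −3.10 and −3.07 at 0.08 generations, at −1.28, −1.76 and −1.60 at 0.13 generations and at 1.16, 1.38 and 1.28 at 2 generations. The arrays were above all controls from 0.08 generations on. It was called from 0.13 generations (2.26, 4.79-fold, adjusted p = 3.311e-10) and was highest at 2 generations, at 5.08 or 33.8-fold (adjusted p = 4.449e-19, limma). HEM14 stood at −1.497, −1.90 and −1.35 before the switch, at −0.62, −0.52 and −0.47 at 0.13 generations and at 1.11, 1.26 and 1.13 at 2 generations. These groups did not overlap, and the changes were 1.04 (adjusted p = 1.35e-05) and 2.75 or 6.71-fold (adjusted p = 1.936e-15). The call at 0.13 generations was lost without replicate 2 and without replicate 3.

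HMX1 stood at 1.12, 0.78 and 1.01 before the switch, at 0.67, −0.09 and 0.01 at 0.04 generations and at −2.51, −2.10 and −2.08 at 0.08 generations. All arrays lay below the controls. The drop of 0.77 at the first time was not called, and at 0.08 generations HMX1 was 9.18-fold down (−3.20, adjusted p = 1.797e-07). Its arrays at 3 generations were spread from −3.01 to −1.42.

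The change with antimycin A minus that without it was called for 2 of 9 genes, where 27.8% of all genes were called. HEM13 was called earlier with the drug, at 0.13 against 0.19 generations. The aerobic controls without the drug are the scattered ones described above. The difference was 1.41 at 0.08, 2.21 ± 0.24 at 0.13 (adjusted p = 9.559e-09), 1.89 at 0.19 and 1.32 at 2 generations. With the cells before antimycin A as the control it was 0.86 at 0.08 and 0.77 at 2 generations, both no longer called, while the calls at 0.13 and 0.19 generations held. The call at 0.13 generations also held without any 1 replicate. HEM15 was lower with the drug at 0.08 generations, where it stood at −0.47, −0.47 and −0.36 against −0.25, −0.02 and −0.15 in the controls. This difference was −1.03 ± 0.16 (adjusted p = 0.0002135), and the call was lost without replicate 2 and without replicate 3 (−0.95 and −1.05).

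Re-aeration asked after how many generations the pathway returns when air is restored. In galactose 6 of 9 genes were called (27.4% of all genes, 16.1% upwards and 12.5% downwards). HMX1 and HEM2 rose at the first sampled time, and HEM13, HEM14, HEM1 and HEM15 fell later. In glucose 5 of 9 were called, the same genes without HEM15 (21.1% of all genes, 12.9% upwards and 9.06% downwards).

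HMX1 in galactose stood at −4.48, −3.85 and −4.17 before air was restored, at −0.82, −0.42 and −0.58 at 6.03 generations, at 1.10, 1.32 and 1.21 at 6.06 generations and at −0.61, 0.20 and −0.12 at 7.6 generations. Every re-aerated array was above every control, and those at 6.06 generations were above those at 6.03 and 7.6 generations. The change was 3.56 or 11.8-fold at 6.03 generations (adjusted p = 5.045e-15) and 5.38 or 41.6-fold at 6.06 generations (adjusted p = 1.52e-19, limma). At 7.6 generations it was 3.99. In glucose HMX1 stood at −3.44, −3.52 and −3.47 in the controls, at −0.03, −0.94 and −0.95 at 6.03 generations, at 1.48, 1.61 and 1.56 at 6.1 generations and at −0.10, −0.16 and 0.08 at 7.6 generations. Here too no re-aerated array overlapped the controls. The change was 2.83 at 6.03, 5.02 or 32.5-fold at 6.1 (adjusted p = 4.612e-20) and 3.42 at 7.6 generations. No difference between the sugars was called for HMX1.

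HEM2 moved with HMX1 but by less. In galactose it stood at −0.61, −0.36 and −0.50 in the controls, at 0.49, 0.53 and 0.80 at 6.03 generations and at 0.89, 0.71 and 1.00 at 6.06 generations. The groups did not overlap, and the changes were 1.10 (adjusted p = 2.976e-05) and 1.36 or 2.56-fold (adjusted p = 3.886e-07). It was called up to 6.13 generations. In glucose it stood at −1.07, −0.90 and −0.61 in the controls and at 1.00, 1.03 and 1.03 at 6.1 generations. Again no array overlapped, and the change was 1.88 or 3.67-fold (adjusted p = 9.649e-13, limma). In glucose it was called at 8 of 10 time points, the last with 0.69 at 7.6 generations. Without replicate 3 of that group, the array described above, the value was 0.65 and no longer called (adjusted p = 0.0605), as without any 1 replicate of the series. The call at 6.03 generations in galactose was lost without replicate 1 and without replicate 3, while those at 6.06 generations in galactose and at 6.1 generations in glucose held.

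HEM1, the gene of the first enzyme, was called in re-aeration and in no other series. In galactose it stood at 0.33, 0.48 and 0.48 in the controls and at −0.50, −0.52 and −0.21 at 6.2 generations, and in glucose at 0.56, 0.69 and 0.48 and at −0.52, −0.45 and −0.56. Neither pair of groups overlapped. The change at 6.2 generations was −0.84 ± 0.11 in galactose (adjusted p = 0.0003706) and −1.09 ± 0.11 in glucose (adjusted p = 3.712e-07, limma). In glucose it was also called at 6.3 (−1.08) and 6.4 generations (−0.71), and by 7.6 generations the change was −0.38 in galactose and −0.37 in glucose. The call in galactose was lost without replicate 1 and without replicate 2. In antimycin A treatment in air HEM1 was not called, but its arrays at 0.13, 0.19 and 0.25 generations lay below all controls. Their means were −0.735, −1.03 and −0.65, against −0.35 in the controls. In anaerobiosis in glucose, also without a call, the HEM1 arrays from 0.25 to 4 generations lay above all controls. Their means were from 0.08 to 0.28, against −0.215. In anaerobiosis in galactose they lay below all controls at 0.13 and 0.19 generations and above them at 1 generation. The means there were −0.46, −0.33 and 0.28, against −0.13.

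HEM13 in galactose stood at 2.29, 2.09 and 2.25 in the controls, at 0.38, 0.57 and 1.42 at 6.06 generations, at −1.65, −1.62 and −1.61 at 6.13 generations and at −1.82, −2.13 and −1.81 at 6.3 generations. All these arrays lay below the controls, with replicate 3 at 6.06 generations above its group. It was first called at 6.06 generations (−1.42, adjusted p = 1.499e-05) and lowest at 6.3 generations, at −4.13 or 17.5-fold down (adjusted p = 3.106e-16). The call at 6.06 generations was lost without replicate 1 and without replicate 2. In glucose HEM13 stood at 1.16, 1.20 and 0.95 in the controls, at −0.42, −0.18 and −0.08 at 6.1 generations, at −1.20, −1.09 and −0.999 at 6.13 generations and at −4.10, −3.98 and −3.97 at 6.3 generations. These groups did not overlap either. It was first called at 6.1 generations (−1.33, adjusted p = 1.106e-06, but 0.01002 without replicate 2) and reached −5.12 or 34.7-fold down at 6.3 generations (adjusted p = 1.169e-21, limma).

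HEM14 in galactose stood at 1.38, 1.16 and 1.46 in the controls, at −1.62, −1.80 and −1.499 at 6.2 generations and at −0.58, −0.65 and −0.37 at 7.6 generations. In glucose it stood at 1.07, 1.17 and 0.90 in the controls, at −2.97, −2.85 and −2.76 at 6.3 generations and at −1.17, −1.32 and −1.12 at 6.8 generations. In both sugars the arrays fell below the controls and later came part of the way back. The lowest change was −2.97 or 7.85-fold down at 6.2 generations in galactose (adjusted p = 1.293e-15) and −3.91 or 15-fold down at 6.3 generations in glucose (adjusted p = 2.514e-19, limma). At 7.6 generations the changes were −1.87 and −2.53. HEM15 in galactose stood at 0.75, 0.54 and 0.55 in the controls and at −0.23, −0.17 and −0.06 at 6.6 generations, without overlap. It was called from 6.3 to 6.8 generations, lowest at −0.77 (adjusted p = 2.315e-05), and in glucose its lowest change was −0.38 and was not called. The calls in galactose were lost without replicate 1 and without replicate 3.

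The change in glucose minus that in galactose during re-aeration was called for 2 of 9 genes, where 9.23% of all genes were called. HEM13 was still higher in glucose at 6.1 generations (1.55, adjusted p = 1.925e-05) and at 6.13 generations (1.64 ± 0.22, adjusted p = 4.675e-06), with changes of −2.20 in glucose and −3.84 in galactose at the latter. HEM14 was lower in glucose at 6.3 generations, with a difference of −1.40 ± 0.18 (adjusted p = 2.281e-06), and with quantile normalization this difference was −0.17. The HEM13 calls were lost without replicate 2 and the HEM14 call without replicate 1.

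**Figure D3:**
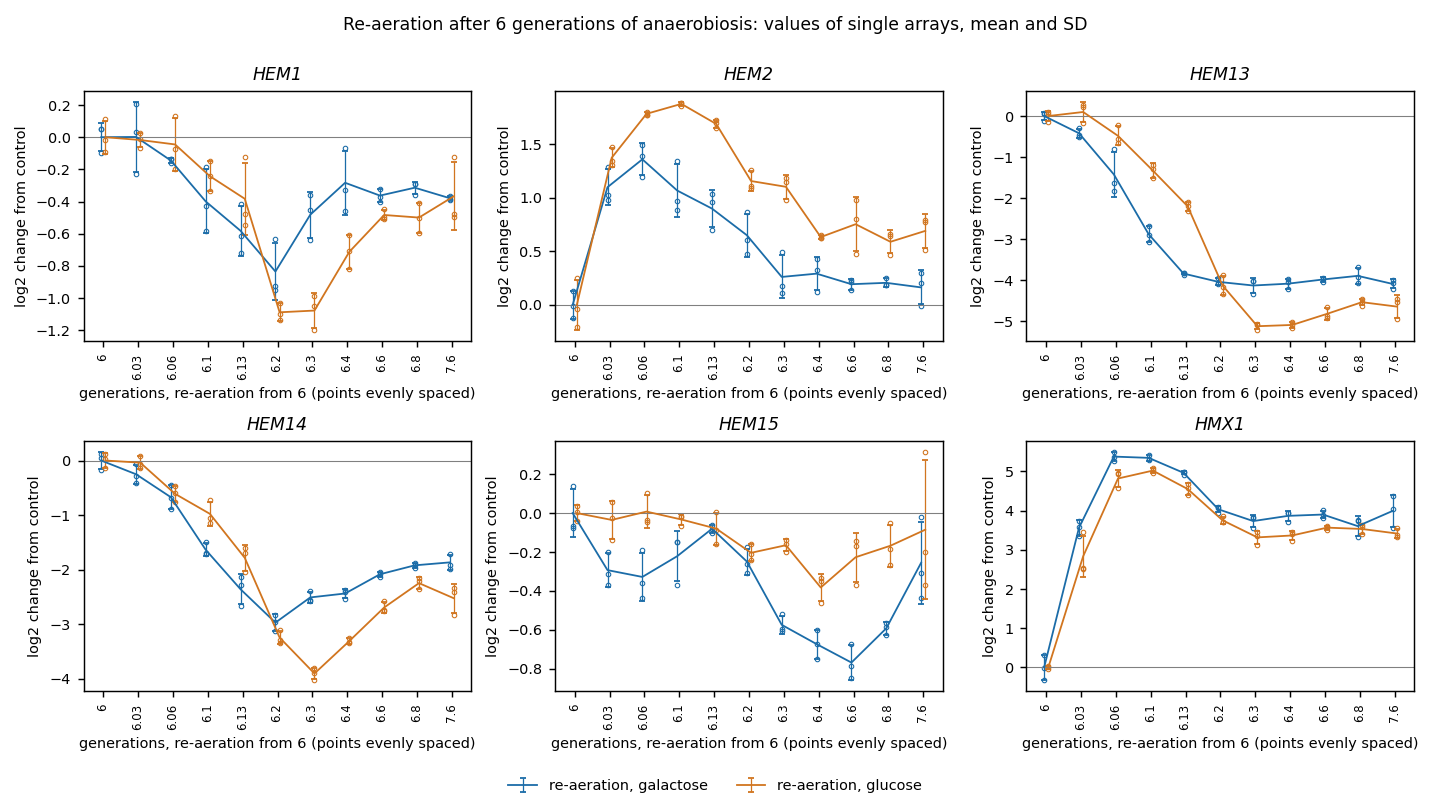
Log2 change from the anaerobic control (vertical axis) of 6 heme genes against generations, with re-aeration from 6 (horizontal axis, points evenly spaced), in galactose and glucose. Circles are single arrays, lines join means and bars are the SD. HMX1 is at 5.38 by 6.06 generations in galactose and at 5.02 by 6.1 generations in glucose, and HEM13 reaches its lowest values at 6.3 generations.

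In the msn2/4 mutant, which was used to ask which anaerobic changes need Msn2 and Msn4, 3 of 9 genes were called (6.58% of all genes). HEM13 stood at −2.75, −2.74 and −2.95 in the controls, at −0.91, −1.73 and −1.01 at 0.19 generations and at 0.70, 0.01 and 1.39 at 2 generations. All arrays at these times were above the controls, and those at 2 generations spanned 1.38. The change was called at 2 generations (3.51 ± 0.30, adjusted p = 7.607e-05) and was 1.60 at 0.19 generations. HEM14 stood at −0.82, −0.98 and −0.92 in the controls and at 0.38, 0.64 and 0.57 at 2 generations, with no overlap and a change of 1.44 ± 0.14 (adjusted p = 0.0005191, limma). Its arrays at 0.04, 0.08 and 0.19 generations also lay above all controls, though it was not called there. The means were −0.35, 0.11 and 0.18, against −0.91. HEM2 was not called, though its arrays at 0.19 and 2 generations lay below all controls. Its means were 0.45 in the controls, −0.52 at 0.19 generations and −0.87 at 2 generations.

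HMX1 in the mutant stood at 1.59, 1.58 and 1.80 in the controls, at 0.30, 0.84 and 0.77 at 0.04 generations, at −0.89, −0.28 and −0.26 at 0.19 generations and at −0.57, −1.28 and −1.74 at 2 generations. All later arrays lay below the controls. It was called at 0.19 generations (−2.13 ± 0.27, adjusted p = 0.008732) and at 2 generations, at −2.85 or 7.23-fold down (adjusted p = 0.0002563). With the replicate number as a block the call at 0.19 generations was lost (adjusted p = 0.04093). With each replicate left out in turn, 0 to 1 of the 3 genes stayed called.

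The change in the mutant minus that in the wild type was called for 1 of 9 genes, HEM15, where 7.12% of all genes were called. HEM15 in the mutant stood at −0.41, −0.19 and −0.44 in the controls and at −0.94, −0.71 and −0.76 at 0.08 generations. The mutant arrays lay below their controls at the time when those of the wild type lay above theirs. The change was −0.46 in the mutant and 0.74 in the wild type, and the difference of −1.20 ± 0.18 was called (adjusted p = 0.000279, limma). Without any 1 replicate the difference was −1.16 to −1.25 and no longer called (adjusted p from 0.01722 to 0.4413). The interaction tests for HEM15 at 0.08 generations with glucose, with antimycin A and with the mutant all use the same wild-type galactose arrays.

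**Figure D4:**
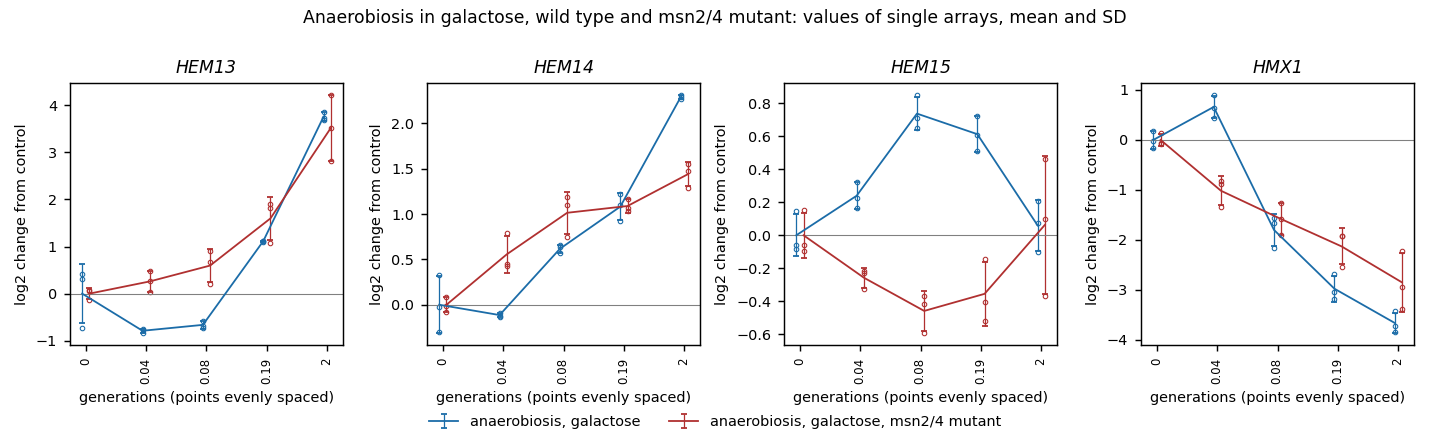
Log2 change from the aerobic control (vertical axis) of HEM13, HEM14, HEM15 and HMX1 against generations of anaerobiosis in galactose (horizontal axis, points evenly spaced) in the wild type and the msn2/4 mutant. Circles are single arrays, lines join means and bars are the SD. At 0.08 generations HEM15 is at 0.74 in the wild type and at −0.46 in the mutant.

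The genes of the middle of the pathway were not called at any time. HEM3 (porphobilinogen deaminase) had its largest change in anaerobiosis with antimycin A, at −0.77, −0.99 and −0.64 after 1 generation against 0.74, 0.43 and −0.22 before the switch. The groups did not overlap, but the controls were widely spread and the change of −1.12 ± 0.22 missed the threshold (adjusted p = 0.1284, limma). Before antimycin A was added the same gene had stood lower than just before the switch, at −0.60, −0.84 and 0.0027. HEM4 (uroporphyrinogen III synthase) had its largest change, −0.51, after 3 generations of respiratory inhibition in air. HEM12 (uroporphyrinogen decarboxylase) stood at −0.09, −0.13 and −0.01 in the aerobic controls in galactose and at 0.27, 0.53 and 0.36 at 0.08 generations. This was its largest change, 0.46 ± 0.09, and the arrays did not overlap.

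Regulators were examined as a list of 12 genes. These were HAP1, ROX1, MOT3, TUP1, CYC8, HAP2, HAP3, HAP4, HAP5, AFT1, AFT2 and UPC2. Within 3 generations of anaerobiosis 6 were called in galactose (40.5% of all genes) and 5 in glucose (21.6%). In antimycin A treatment in air 1 was called (23.6%), in anaerobiosis with antimycin A 5 (17.8%), in each re-aeration 6 (27.4% in galactose and 21.1% in glucose) and in the msn2/4 mutant 1 (6.58%), so that in galactose anaerobiosis and in the mutant the list was near the share of all genes. ROX1 was first called at the same time points as HMX1, with −2.30 at 0.08 generations in galactose, −2.98 at 0.13 generations in glucose and −3.05 at 0.08 generations with antimycin A. HAP1 rose in these 3 series, to at most 1.87, 1.97 and 1.97, and MOT3 fell to −2.22, −2.60 and −2.01. The single regulator called in antimycin A treatment in air was HAP2, a subunit of the CCAAT-binding activator (0.90 at 0.08 generations).

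In re-aeration ROX1 rose to 3.86 at 6.03 generations in galactose, where it was called at 6.03 and 6.06 generations only. In glucose it rose to 6.17 and was called at all 10 time points, with 3.73 at 7.6 generations. The difference between the sugars was called at all 10 time points and was at least 2.31. MOT3 rose to 3.13 in galactose and 3.66 in glucose, and HAP1 fell to −2.38 and −2.48. HAP4, the activating subunit of the CCAAT-binding complex, fell to −1.85 in glucose anaerobiosis and rose to 1.95 in glucose re-aeration. It was also called upwards in galactose re-aeration. At 4, 5 and 6 generations of anaerobiosis in galactose it was at −1.18, −1.10 and −1.04, not called. In the mutant the single regulator called was HAP1, at 1.11 after 2 generations.

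Of a list of 17 genes for the supply and use of heme, 8 were called in anaerobiosis in galactose (40.5% of all genes), 4 in glucose (21.6%) and 3 under antimycin A in air (23.6%), each near the share of all genes. In anaerobiosis with antimycin A 4 were called (17.8%). In each re-aeration 7 were called (27.4% and 21.1%), 6 upwards and 1, MMT1, downwards, and in the msn2/4 mutant 0 (6.58%). CYC3, which encodes the lyase that attaches heme to cytochrome c, fell to −1.41 in galactose, −1.55 in glucose and −1.21 with antimycin A, and rose to 1.61 and 1.77 in re-aeration. COX15, needed to make heme A, fell to −0.72, −0.88 and −1.12 within 3 generations of these series and rose to 1.90 and 2.32 in re-aeration. In galactose both had first risen, by 0.58 for CYC3 and 0.77 for COX15 at 0.13 generations. Both were also called upwards in antimycin A treatment in air. MET8 and MET1, which turn uroporphyrinogen III into siroheme, rose in re-aeration to 3.31 and 2.29 in galactose and to 2.70 and 1.64 in glucose. DAP1, a heme-binding protein of sterol synthesis, fell to −0.995 in galactose and rose to 1.58 in anaerobiosis with antimycin A.

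Likeness of course was described by the correlation of changes over the 70 time points, which share arrays and controls, so no test was made. HEM13 and HEM14 were alike (r = 0.971), and each was opposite to HMX1 (−0.900 and −0.889). HEM2 was closer to HMX1 (0.833). The genes nearest to HEM13 were ARE1 (0.984), FRD1 (0.977) and EUG1 (0.971), and those nearest to HEM14 were ARE1 (0.978), CPR4 (0.975) and HEM13 itself. Those nearest to HMX1 were YGR266W (0.972), HYP2 (0.968) and HMG1 (0.968), and those nearest to HEM2 were AIM14 (0.923), ARE2 (0.921) and ERG12 (0.911). ARE1, FRD1 and HMG1 encode a sterol acyltransferase, a fumarate reductase and an HMG-CoA reductase. HEM1 was nearest to PLB2 (0.871), HEM12 to PEX7 (0.914), HEM15 to TPS3 (0.841) and HEM3 to YKL070W (0.846), while for HEM4 no gene reached 0.8.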

How the data were processed

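The authors scanned dual-channel 70-mer arrays, quantified spots with GenePix Pro and normalized them in SAS, and deposited 1 background-corrected, normalized value per ORF and array, used here as log2 of Cy3 sample over Cy5 reference. The base is not stated. For 4 of 4 series with a pooled reference, base 2 came closest to equal linear means of the 300 most and 300 least variable genes. In anaerobiosis in glucose base e came almost as close, with a log2 gap of 0.10 against −0.08 for base 2. Array centring hides any shift common to all transcripts. Per the labels the reference was a pool of equal RNA masses of all time points, while the methods give another pool for the antimycin A arrays.

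Linear models giving each time point its own mean were run over all 5609 ORFs in limma 3.58.1 in R 4.3.3, with at least 2 values per group and Holm's adjustment at 0.01. Series were compared by interaction terms, in which references cancel. The fit was tested on simulated data. All 9 members were named, and other genes came from 2 lists of function and a rule of likeness. Members, lists and rule were chosen with earlier results of these data known. Replicate numbers did not pair arrays throughout. Alternatives concerned adjustment, scaling, spread, control, a replicate block and omitted arrays. Sequences and growth were not analysed here.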

Additional observations from a re-analysis of the deposited data

Results flagged for a closer look

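For 10 combinations of gene and series the change differed between series by an interaction test, and the time point with the smallest p-value is given for each. In antimycin A treatment in air minus anaerobiosis in galactose these were HMX1 at 0.25 generations (4.58), HEM13 at 1 generation (−4.60) and HEM14 at 1 generation (−2.42). Each held when any 1 replicate was left out.

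In anaerobiosis with minus without antimycin A they were HEM13 at 0.13 generations (2.21) and HEM15 at 0.08 generations (−1.03). Fitted to the groups compared alone, neither was called (adjusted p = 0.7078 and 0.1603, limma). In anaerobiosis in glucose minus galactose they were HEM15 at 0.13 generations (−1.26) and HEM14 at 0.08 generations (−0.91). Fitted alone their adjusted p was 0.01046 and 1.

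In re-aeration in glucose minus galactose they were HEM13 at 6.13 generations (1.64) and HEM14 at 6.3 generations (−1.40). The latter is the one that quantile normalization brought to −0.17. In the msn2/4 mutant minus the wild type it was HEM15 at 0.08 generations (−1.20), at −0.73 with quantile normalization (adjusted p = 1, limma).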

How the results depend on the processing

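Of 220 called changes and differences of the 9 genes, 0 reversed under any alternative run. Calls lost were 2 with array median centring, 15 with quantile normalization, 0 with genes without missing values, 5 with the spread of each gene alone, 73 with a fit to the groups compared alone, 32 with a 2-fold minimum and 133 of 744 with a replicate left out. Of the last, 40 were of HEM15, 25 of HEM2, 22 of HMX1, 21 of HEM13, 20 of HEM14 and 5 of HEM1. Centring moved the median of all genes by at most 0.09 and quantile normalization by at most 0.05.

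Called genes of 9 moved as follows. With Benjamini-Hochberg adjustment they were 7 in glucose anaerobiosis, 6 over its 4 to 6 generations, 5 in antimycin A treatment in air, 6 in anaerobiosis with antimycin A, 6 and 5 for glucose minus galactose in anaerobiosis and re-aeration, 7 for antimycin A in air minus anaerobiosis, 6 for anaerobiosis with minus without antimycin A and 5 for mutant minus wild type. Fitted to the groups compared alone they were 3 in galactose anaerobiosis, losing HEM2 and HEM15, and 0 in the mutant and for glucose minus galactose, with minus without antimycin A, and mutant minus wild type. These fits rest on fewer arrays. Quantile normalization gave 0 in antimycin A treatment in air, 1 for with minus without antimycin A and 2 for mutant minus wild type, where HEM14 and HMX1 replaced HEM15. A 2-fold minimum gave 1 for glucose minus galactose in anaerobiosis, and the cells before antimycin A as control gave 4 for with minus without antimycin A.

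With each replicate left out in turn the counts were 4 to 5 in galactose anaerobiosis, 3 in glucose anaerobiosis and, for antimycin A treatment in air, 1. They were 3 in anaerobiosis with antimycin A, 4 to 5 and 5 in galactose and glucose re-aeration, and 0 to 1 in the mutant. Among differences they were 1 to 2 for each pair of sugars and for with minus without antimycin A, 3 for antimycin A in air minus anaerobiosis and 0 for mutant minus wild type.

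Arrays with the same number deviated together in every pair in 14 of 70 comparisons, namely at 8 of 10 time points of galactose re-aeration, 2 of 4 of the mutant, 2 of 10 of glucose re-aeration and 1 of 10 each of glucose anaerobiosis and antimycin A treatment in air, and in no series did all time points do so. The numbers were therefore not taken to pair the arrays throughout. With the replicate block 4 of 220 calls were lost, all of HMX1 (0.08, 0.13 and 0.38 generations in antimycin A treatment in air, 0.19 generations in the mutant, adjusted p = 0.04093), and the count in anaerobiosis with antimycin A became 4 with HEM2, while all other counts were as without it.

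The number of arrays, 3 a group, limits the precision, and the smallest called change of a heme gene was −0.57 (HEM15, galactose re-aeration).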
